A study of Mus musculus with 6 samples.

Results

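The miR-26 family was examined in LLC1 cells, an established line from a mouse Lewis lung carcinoma. Its members were chosen by name, as every mouse miRNA on the array whose name starts with miR-26a or miR-26b, from either arm of the hairpin. This gave 3 of the 566 mouse miRNAs on the array, namely mmu-miR-26a-5p, mmu-miR-26b-5p and mmu-miR-26b-3p (mmu stands for mouse and is left out from here on), read by 8 of the 1712 miRNA probes. Cells were grown for 48 h either in 2D, as a monolayer on plastic in DMEM with fetal bovine serum, or in lr-ECM 3D, embedded in a laminin-rich matrix gel at 0.5 mg/ml above an agarose layer in the same medium. The labels name no engineered genetic change and no drug in either group. The conditions also differed in plate and seeding density, per the study's methods. Each condition had 3 biological replicates with 1 single-colour array each, and this small number of arrays sets the precision of what follows.

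A miRNA is cut from a hairpin precursor, and its seed, the bases near the 5′ end, sets most of which mRNAs it represses. The miR-26 genes are known to lie in introns of the Ctdsp genes, which encode small phosphatases acting on the C-terminal domain of RNA polymerase II, and the 5p arm is the abundant product. In cancer research miR-26a is best known for repressing Ezh2, the histone methyltransferase of the Polycomb complex.

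The mature sequences are shown because they define what the family shares and where its members part. They are taken from RefSeq on mouse build GRCm38.p6, written 5′ to 3′ with the seed (bases 2 to 8) in capitals.
miR-26a-5p: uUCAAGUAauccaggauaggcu
miR-26b-5p: uUCAAGUAauucaggauaggu
miR-26b-3p: cCUGUUCUccauuacuuggcuc
miR-26a-1-3p: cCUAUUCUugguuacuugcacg
miR-26a-2-3p: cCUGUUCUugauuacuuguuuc

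Both 5p members carried the seed UCAAGUA, and of 1679 mature mouse miRNA names in the RefSeq table only these 2 did. The members are identical over their first 10 bases. Counted from 1 at the 5′ end of miR-26a-5p, they differ by C11U and C21U, and miR-26a-5p has 22 bases against 21 in miR-26b-5p. Both differences lie outside the seed, and they set the GC content at 40.9% for miR-26a-5p and 33.3% for miR-26b-5p. The 3p arms are less alike. MiR-26b-3p and miR-26a-2-3p share the seed CUGUUCU with miR-6932-3p and miR-7039-3p, whereas miR-26a-1-3p has a seed of its own. Of the 3p arms only miR-26b-3p had probes on the array, and miR-26a-1-3p and miR-26a-2-3p are not analysed here.

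The precursors are shown, with both mature arms in capitals, because miR-26a-5p is made from 2 genes whose products cannot be told apart by its probes.
Mir26a-1: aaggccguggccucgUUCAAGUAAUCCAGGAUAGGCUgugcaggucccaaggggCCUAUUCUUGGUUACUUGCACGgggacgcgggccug
Mir26a-2: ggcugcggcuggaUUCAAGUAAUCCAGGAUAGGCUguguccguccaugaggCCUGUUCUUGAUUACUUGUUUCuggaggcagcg
Mir26b: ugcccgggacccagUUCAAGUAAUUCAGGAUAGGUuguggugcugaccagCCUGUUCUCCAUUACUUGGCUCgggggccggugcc

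On GRCm38.p6, Mir26a-1 lies at chr9:119031796-119031885 inside Ctdspl, Mir26a-2 at chr10:126995530-126995613 inside Ctdsp2, and Mir26b at chr1:74394310-74394394 inside Ctdsp1. All 3 precursors and their hosts are on the plus strand. Ctdspl is the longest host, with a span of 117584 bases against 21259 for Ctdsp2 and 5677 for Ctdsp1, and Mir26a-1 begins 105260 bases into it. RefSeq lists 2 start sites for Ctdsp2, and the second, at base 126995613, is the last base of the Mir26a-2 precursor. The table gives gene spans and starts but no exons, so the introns are not marked here.

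Before the members are described, the arrays themselves need a word, because 1 of them stood apart. The mean signal over all miRNA probes before scaling ran from 5.03 linear units on 2D replicate 2 to 49.9 on lr-ECM 3D replicate 1. The other 2D arrays had 21.4 and 40.4 and the other lr-ECM 3D arrays 38.7 and 37.8. Mouse miRNAs detected per array numbered 48 to 101 in 2D and 120 to 151 in lr-ECM 3D. The 2D arrays came from 1 slide and 1 scan day and the lr-ECM 3D arrays from the other slide and day, and the culture condition therefore cannot be told apart from slide or scan day.

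Signals before scaling are given first. The brighter miR-26a-5p probe, A_54_P4384, read 139, 42.4 and 312 linear units on 2D replicates 1, 2 and 3. In lr-ECM 3D it read 298, 257 and 250 in the same order. The 2D arrays therefore spanned the whole range of the lr-ECM 3D arrays and went beyond it on both sides. The brighter miR-26b-5p probe, A_54_P2484, read 67.4, 24.7 and 191 in 2D and 158, 131 and 130 in lr-ECM 3D, with the same order of arrays within each group. The 2D array closest in overall brightness to the lr-ECM 3D arrays was 2D replicate 3, and it had the highest unscaled signal of all 6 arrays for both members.

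**Figure D1:**
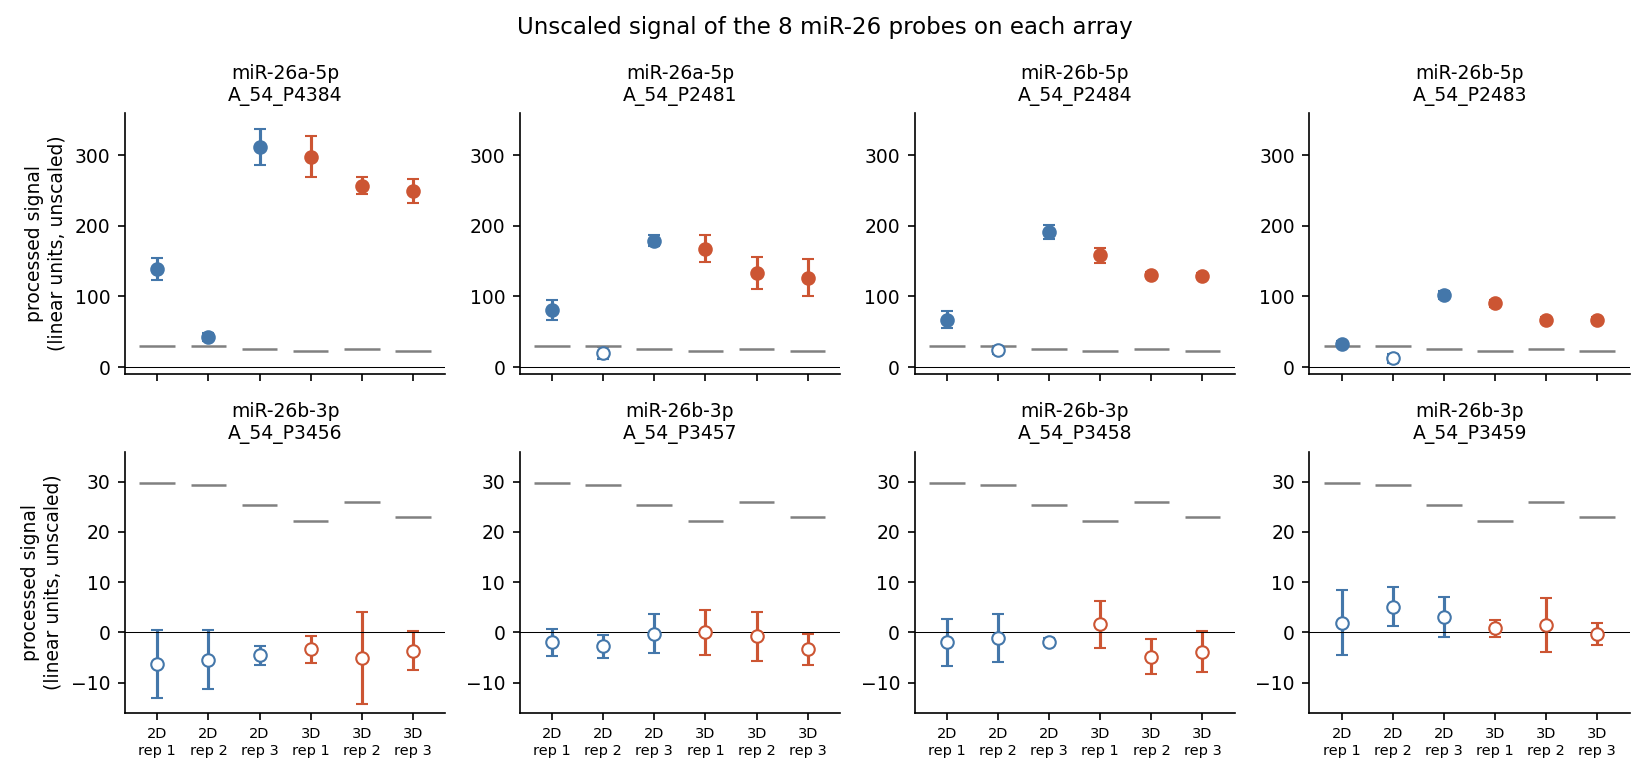
Unscaled processed signal in linear units (y axis) of the 8 miR-26 probes on each array (x axis; 2D in blue, lr-ECM 3D in red). Points are means over the spots of a probe, bars 1 SD over those spots, filled points are well above background, and the grey marks give the lowest signal that was well above background on that array. The 4 probes of the 5p members stand above the marks except on 2D replicate 2, where 1 of the 4 does, and the 4 miR-26b-3p probes lie below the marks on all 6 arrays.

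Each 5p probe was printed as 10 spots per array, which gives the measuring error within an array. A spot carried a flag of the scanner software where its signal stood well above background, and a probe counted as detected where at least 50% of its spots did. Probe A_54_P4384 of miR-26a-5p had a coefficient of variation over spots of 4.62% to 12.4%, and all its spots were flagged on all 6 arrays. Probe A_54_P2484 of miR-26b-5p had 2.48% to 22.7%, the highest on 2D replicate 2, where only 1 of its 10 spots was flagged. MiR-26a-5p was thus detected on 3 of 3 arrays in both conditions, and miR-26b-5p on 2 of 3 in 2D and 3 of 3 in lr-ECM 3D. The second probes, A_54_P2481 and A_54_P2483, were likewise detected on every array but 2D replicate 2, where their coefficients of variation rose to 41.6% and 47.8%.

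MiR-26b-3p, the passenger arm of Mir26b, stayed within background throughout. Its 4 probes had mean signals between -6.26 and 5.16 linear units over the 6 arrays, whereas the lowest signal well above background on an array was 22.1 to 29.7. No spot of any of these probes was flagged on any array. Since both groups lie below background, no fold is given, and the data do not show whether this arm differed between the conditions.

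For the comparison of the conditions the arrays were brought to 1 brightness, the average of the 2D arrays, by multiplying all signals of an array with the same factor. Signals under 1 were set to 1, log2 was taken, and the brighter probe stood for its miRNA. On this scale miR-26a-5p stood at 7.17, 7.55 and 7.43 in 2D and at 7.06, 7.21 and 7.20 in lr-ECM 3D, each in the order of the replicates. The lr-ECM 3D arrays lay close together at the lower edge of the 2D range, 1 of them below it, and the groups overlapped. The 2D arrays averaged 7.38 ± 0.19 (SD, n = 3), and the lr-ECM 3D arrays averaged 7.15 ± 0.09 (SD, n = 3). The log2 change was -0.23 with an SE of 0.15, a fold of 0.853 with a 95% confidence interval of 0.663 to 1.10 and an adjusted p of 0.345 in limma.

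MiR-26b-5p stood at 6.13, 6.77 and 6.72 in 2D and at 6.14, 6.23 and 6.25 in lr-ECM 3D. Its lowest array was 2D replicate 1, which lay just under the lr-ECM 3D arrays, so that these groups overlapped as well. The 2D arrays averaged 6.54 ± 0.36 (SD, n = 3), and the lr-ECM 3D arrays averaged 6.21 ± 0.06 (SD, n = 3). The log2 change was -0.33 with an SE of 0.20, a fold of 0.796 with a 95% confidence interval of 0.559 to 1.13 and an adjusted p of 0.333 in limma. Without 2D replicate 2, where this member was not well above background, the log2 change was -0.21 with an adjusted p of 0.390 in limma, and that of miR-26a-5p was -0.15 with an adjusted p of 0.415. Without 2D replicate 1, the lowest of the 2D arrays for both members, the log2 change of miR-26b-5p was -0.53, with a 95% confidence interval of -0.85 to -0.22 and an adjusted p of 0.0702 in limma.

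**Figure D2:**
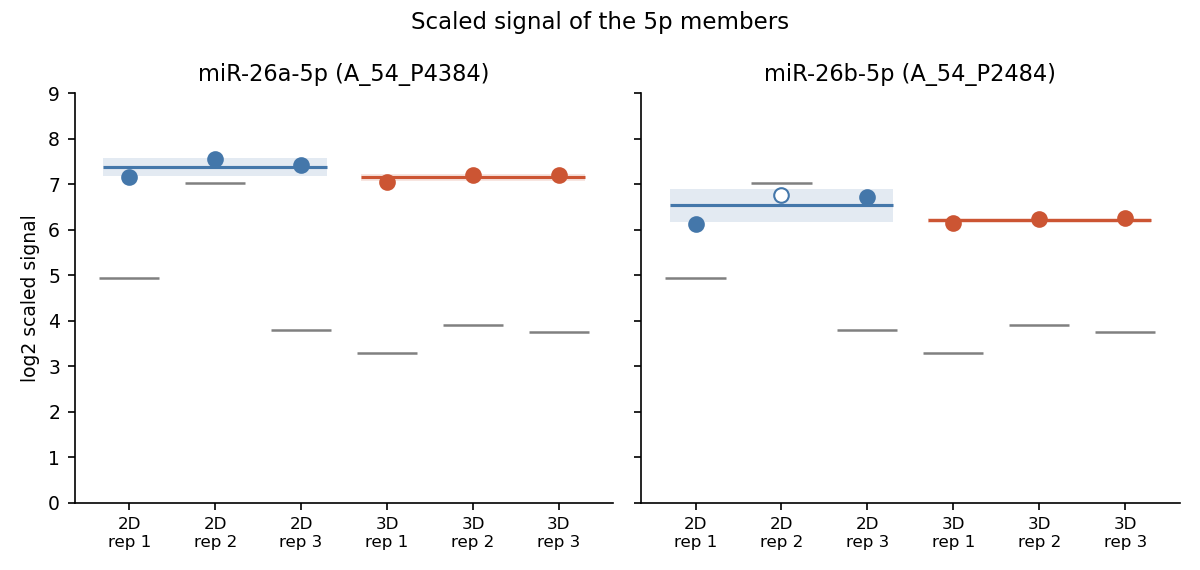
Log2 scaled signal (y axis) of miR-26a-5p and miR-26b-5p on each array (x axis; 2D in blue, lr-ECM 3D in red), with lines at the group means and bands of 1 SD. Filled points are well above background, and grey marks give the lowest signal well above background on the array. The lr-ECM 3D arrays lie between 7.06 and 7.21 for miR-26a-5p and between 6.14 and 6.25 for miR-26b-5p, and the 2D arrays spread more widely, from 7.17 to 7.55 and from 6.13 to 6.77.

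A call needed an adjusted p under 0.05, after Benjamini-Hochberg adjustment over 120 tested mouse miRNAs, and a fold of at least 2. Tested were those detected on each array of 1 condition or of both. Of the members 2 were tested and 0 were called by limma, where 11.7% of the tested miRNAs were called, 10.8% as higher and 0.833% as lower in lr-ECM 3D. These were 14 miRNAs, and 32 without 2D replicate 2. Of the 14, those called as higher were detected on none of the 2D arrays and were tested only because the lr-ECM 3D arrays detected them. The 48 miRNAs detected on all 6 arrays include miR-26a-5p but not miR-26b-5p. Fitted on these 48 alone, limma called 0 and gave 7 an unadjusted p under 0.05. Both members had unadjusted p above 0.05, at 0.170 and 0.161, as against 24.2% of the tested miRNAs below it. On this scale the intervals of both members left out a 2-fold difference in either direction. For miR-26b-5p this was lost without lr-ECM 3D replicate 2 or 3 and with quantile normalization, where the interval of the log2 change began at -1.03, -1.05 and -1.04. For both members it was also lost with the 75th percentile over all probes, without scaling and with the deposited values. In that order the intervals were -1.47 to 1.30, -0.55 to 2.80 and -0.70 to 1.95 for miR-26a-5p. For miR-26b-5p they were -1.53 to 1.17, -0.66 to 2.71 and -0.80 to 1.88. With normexp background correction the interval of miR-26a-5p reached 1.18. The groups overlapped for both, where 42.5% of the tested miRNAs had groups that did not overlap, 22.5% with lr-ECM 3D lower and 20% with lr-ECM 3D higher. Ordered from the most lowered to the most raised of the 120 tested miRNAs, miR-26b-5p was 32nd and miR-26a-5p 45th. The median log2 change over all tested miRNAs was -0.11. It was -0.27 over the 48 miRNAs detected on all 6 arrays, of which 46 had a change below 0. On this scale small negative changes like those of the members were thus shared by most of these 48. The dimmest array, 2D replicate 2, detected 48 mouse miRNAs, so that this 2D array alone decided which miRNAs were in the set. How far a choice by a 2D array favours changes below 0 was not tested. The median over the 48 depended on the arrays and the scaling. It was -0.12 without 2D replicate 2 and 0.04 with the 75th percentile over detected probes.

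**Figure D3:**
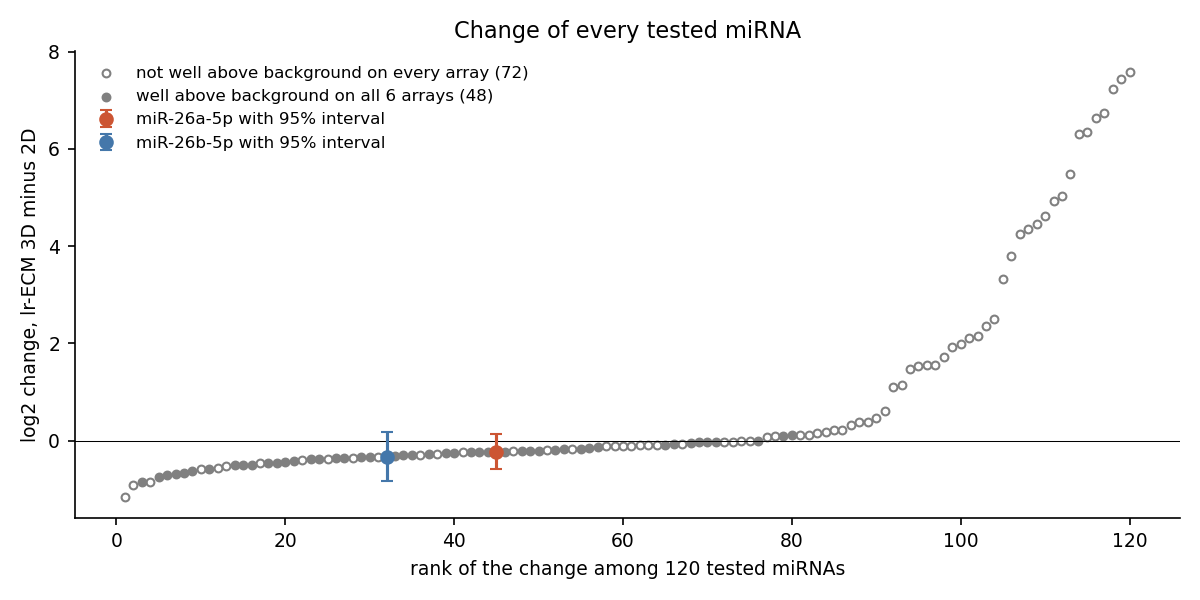
Log2 change from 2D to lr-ECM 3D (y axis) of each of the 120 tested miRNAs in rising order (x axis, rank). Filled grey points are the 48 miRNAs detected on all 6 arrays, open points the other 72, and coloured points the members with their 95% confidence intervals. MiR-26b-5p at -0.33 and miR-26a-5p at -0.23 sit among the filled points, and the large positive changes belong to open points.

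The second probes of the members gave like values. Probe A_54_P2481 of miR-26a-5p stood at 6.40, 6.50 and 6.62 in 2D and at 6.23, 6.25 and 6.22 in lr-ECM 3D, a log2 change of -0.27. For this probe all 3 lr-ECM 3D arrays lay below all 3 2D arrays, as was the case for 22.5% of the tested miRNAs and 37.5% of those detected on every array, while its partner probe overlapped. On 2D replicate 2 its signal was not well above background. Probe A_54_P2483 of miR-26b-5p stood at 5.09, 5.78 and 5.82 in 2D and at 5.34, 5.25 and 5.28 in lr-ECM 3D, a log2 change of -0.27 with overlap. Over the 4 probes the changes thus ran from -0.33 to -0.23.

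Because the size of these changes rests on the factor given to each array, measures within an array were taken as well. The log2 signal of miR-26a-5p minus that of miR-26b-5p, in which the factor cancels, was 1.04, 0.78 and 0.71 in 2D and 0.91, 0.97 and 0.94 in lr-ECM 3D. The difference between the conditions was 0.10, with p = 0.4 in an exact two-sided permutation test, where 3 arrays against 3 cannot go below 0.1. It had the opposite sign with the total gene signal, a sum over probes by the scanner software, at -0.13. It was larger with quantile normalization at 0.45, with normexp background correction at 0.21 and without 2D replicate 1 at 0.20, each with the smallest possible exact permutation p of 0.1. These values concern how the members changed relative to each other, not which was more abundant, since their probes need not bind equally well.

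The signals were next set against the median of the 48 miRNAs detected on all 6 arrays. Relative to this median miR-26a-5p lay at -0.77, -0.92 and -0.56 in 2D and at -0.61, -0.65 and -0.64 in lr-ECM 3D. The lr-ECM 3D values fell inside the 2D range, with a difference of 0.11 and p = 0.4 in the exact two-sided permutation test. MiR-26b-5p lay at -1.81, -1.70 and -1.27 in 2D and at -1.53, -1.63 and -1.59 in lr-ECM 3D, a difference of 0.01 with p = 1 in the same exact test. Against this median, which includes miR-26a-5p itself, the members thus differed by less than the spread between the 2D arrays in these values. Without 2D replicate 3 the differences were 0.21 and 0.18, each with an exact permutation p of 0.1, the smallest possible. With normexp background correction that of miR-26b-5p was -0.26, again with an exact permutation p of 0.1.

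How far the direction of the members can be read was examined by changing the processing. The negative change of miR-26a-5p turned to 1.13 without scaling, 0.62 with the deposited values, 0.42 with normexp background correction and 0.09 with the 75th percentile over detected probes, when the median change of the same 120 miRNAs was 1.24, 0.76, 0.41 and 0.21. That of miR-26b-5p turned to 1.03, 0.54 and 0.20 under the first 3 of these and to 0.08 with the total gene signal. In each of these settings the adjusted p of both members in limma was 0.263 or higher. Quantile normalization moved miR-26b-5p furthest down, to -0.66 with an adjusted p of 0.0290 in limma, which is short of the fold limit and so no call. Neither member was called under any of the alternatives that could be fitted.

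**Figure D4:**
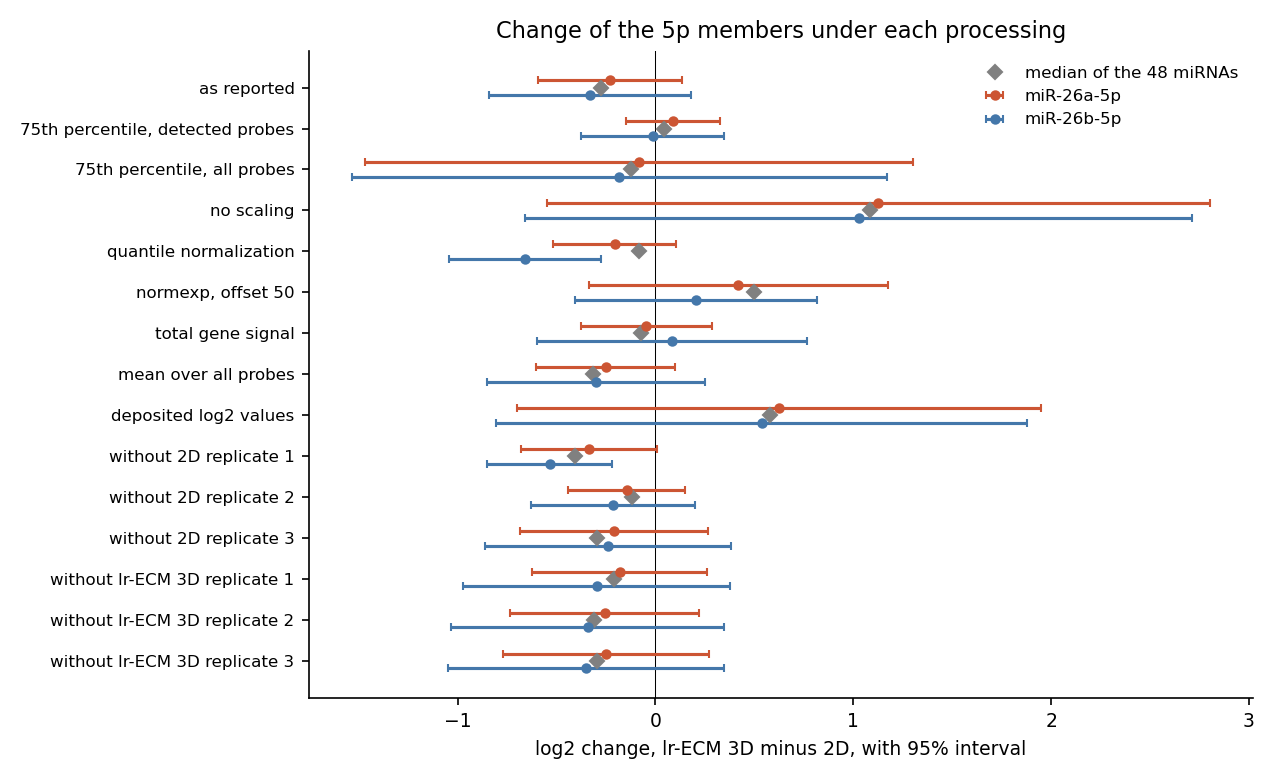
Log2 change from 2D to lr-ECM 3D (x axis) of miR-26a-5p (red) and miR-26b-5p (blue) with 95% confidence intervals under each processing that alters the signals or the arrays used (y axis), with the median change of the 48 miRNAs detected on all 6 arrays as grey diamonds. The diamonds range from -0.41 without 2D replicate 1 to 1.08 without scaling and the members lie near them in most settings, miR-26b-5p being farthest away under quantile normalization at -0.66 against -0.08.

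To place the family among miRNAs with related roles, 2 lists were described. The first held 13 other miRNAs known to act on Ezh2 mRNA, all on the array, of which 10 were tested, namely let-7a to let-7g and let-7i of the let-7 family, miR-98-5p and miR-101b-3p, the last under a name with a version suffix. In limma 0 of the 10 were called, beside 11.7% of all tested miRNAs, and 0 had an unadjusted p under 0.05, beside 24.2%. Of the 10, 8 were detected on all 6 arrays, and among all 48 such miRNAs 0 were called. The 24.2% also covers miRNAs that no 2D array detected, and is not a like share for these 8. Fitted on the 48 alone, limma gave 7 an unadjusted p under 0.05. Their median log2 change was -0.27, from -0.85 to -0.14, beside -0.23 and -0.33 for the miR-26 members. The brightest were let-7f-5p with a change of -0.30, let-7a-5p with -0.23, let-7c-5p with -0.23 and let-7b-5p with -0.33, with adjusted p from 0.407 to 0.517 in limma. MiR-101a-3p, miR-138-5p and miR-124-3p, which also act on Ezh2, were well above background on 0 arrays. Without overlap between the groups, 2 of the 10 lay lower in lr-ECM 3D, near the 22.5% of all tested miRNAs. These were let-7i-5p with a change of -0.34 and miR-101b-3p with one of -0.28. Only 1 of the 2D arrays detected miR-101b-3p, so that its 2D values were mostly not well above background.

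The second list held 24 miRNAs that lie, like miR-26, in introns of protein-coding genes, of which 10 were tested. Their median log2 change was -0.14, with 3 changes above 0 and 7 below. MiR-106b-5p, miR-93-5p and miR-25-3p, which share an intron of Mcm7, had changes of -0.24, -0.08 and -0.21, and miR-16-5p and miR-15b-5p, the latter from Smc4, had -0.09 and -0.43. MiR-103-3p and miR-107-3p from the Pank genes had 0.11 and 0.22. Of the 10, 1 was called, a share near the 11.7% of all tested miRNAs, and groups did not overlap for 3 lower and 2 higher in lr-ECM 3D, beside 22.5% and 20% of all. The call was miR-335-5p from Mest, for which limma gave an adjusted p of 0.000887, with lr-ECM 3D higher. None of the 2D arrays detected it, so that it was tested only because the lr-ECM 3D arrays did, and no fold above 1 could be given as a bound. MiR-140-3p from Wwp2 passed the adjusted p at 0.0457 in limma but not the fold limit, with a change of -0.45. Only 1 of the 2D arrays detected it, so that it too was tested only because the lr-ECM 3D arrays did. Its 2D mean thus rests mostly on signals not well above background.

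The miRNAs whose pattern over the 6 arrays was most like that of each member were then listed, by the mean absolute difference in log2 signal after each miRNA was centred on its own mean. For miR-26a-5p the nearest of 47 candidates detected on every array was miR-106b-5p with a mean difference of 0.03, followed by miR-20b-5p, miR-25-3p, miR-19b-3p and miR-31-3p with 0.03 to 0.04. For miR-26b-5p the nearest of 48 were let-7f-5p with 0.07, miR-31-3p with 0.08, let-7d-5p with 0.09, miR-26a-5p with 0.10 and let-7g-5p with 0.10. The median candidate was 0.12 from miR-26a-5p and 0.17 from miR-26b-5p. All these values share the same 6 arrays and their scaling factors, and they describe likeness only.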

How the data were processed

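Agilent 1-colour arrays with probes for mouse miRNAs each received 100 ng of RNA, enriched in small RNAs and carrying Cy3. The authors extracted spot intensities, which are deposited on a linear scale after background subtraction, with Agilent Feature Extraction 10.7.3.1 and no normalization between arrays; other deposited columns, per the file headers, are flags (scores of no unit). The series table deposited by the authors holds log2 values, whose scaling is not stated; set against the intensities, each array's column equals their log2 after a floor of 1, shifted by a constant, within 0.0487.

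Control spots and 190 to 369 outlier spots per array were left out, of which 0 to 6 were spots of miR-26 probes. No spot was saturated. Spots of a probe were averaged, arrays were scaled by factors of 0.447 to 4.43, and miRNAs were represented by the probe with the highest mean log2 signal. The methods scale experimental arrays to the control arrays' mean, and this was read as a linear factor. Testing used limma 3.58.1 in R 4.3.3 (lmFit, eBayes, two-sided), checked on simulated data. The simulated shifts were far larger than the changes of the members, so that this check does not bear on changes of their size. Within-array differences were compared by exact permutation over the 6 arrays. The members, the lists and the tests were chosen with earlier results of these data known, and 1 further list is not reported here. The miRNAs named are the members, of each list those called and up to 4 with the highest signal, and the 5 nearest in pattern; others named in lists were chosen after their values were seen. RefSeq names matched all 3 members, and the probes' own sequences were not used here, so binding of 1 member to a probe of the other was not tested.

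Alternatives covered the scaling, the background correction, the summary of a miRNA, the floor, the deposited values, the filter, each array left out, the replicate number as a block, a variance trend with a robust prior, and the methods' t-test.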

Additional observations from a re-analysis of the deposited data

How the results depend on the processing

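The changes of miR-26a-5p and miR-26b-5p are in log2 units, lr-ECM 3D minus 2D, and the cause of a difference between settings was not tested. Neither was called in 20 and 19 alternatives, and each kept its negative sign in 16 and 15. Another floor, filter, block, prior or test could not change the sign and so did not test it. Both signs reversed without scaling (1.13 and 1.03), with the deposited values (0.62 and 0.54) and with normexp (0.42 and 0.20). That of miR-26a-5p also reversed with the 75th percentile over detected probes (0.0874) and that of miR-26b-5p with total gene signal (0.0845). MiR-26b-5p could not be tested with the filter on all 6 arrays. With each array left out in turn the change ran from -0.34 to -0.15 for miR-26a-5p and from -0.53 to -0.21 for miR-26b-5p. Both were lowest without 2D replicate 1, where limma gave miR-26b-5p an adjusted p of 0.0702, and highest without 2D replicate 2.

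The difference between the members' changes (0.10) reversed with total gene signal (-0.13), was larger with quantile normalization (0.45) and normexp (0.21), and ran from 0.03 without 2D replicate 3 to 0.20 without 2D replicate 1 when arrays were left out. The change relative to the 48 miRNAs reversed for miR-26a-5p with normexp (-0.0435) and for miR-26b-5p with normexp (-0.26) and the mean over all probes (-0.0438). With arrays left out it ran from 0.03 to 0.21 for miR-26a-5p and from -0.10 to 0.18 for miR-26b-5p, where it was negative without 2D replicate 1 (-0.10), 2D replicate 2 (-0.04) and lr-ECM 3D replicate 1 (-0.01).

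The number of called miRNAs was 14. It moved to 25 with the 75th percentile over all probes, 27 without scaling, 26 with total gene signal, 27 with the deposited values, 32 with no filter and 0 with the filter on all 6 arrays, where limma gave 7 at an unadjusted p under 0.05. It ran from 12 to 32 with arrays left out, the 32 being without 2D replicate 2. The methods' t-test, with the fold limit kept, called 17 before and 12 after Benjamini-Hochberg adjustment, and neither member was among them. Deviations of same-numbered arrays correlated at -0.32, -0.37 and 0.16, and those of differently numbered arrays at -0.32 to 0.35. These values gave no sign that the replicate numbers pair the samples, but 3 arrays in each group cannot settle it. With the replicate number as a block the changes stayed at -0.23 and -0.33, with adjusted p of 0.329 for both in limma, and 12 miRNAs were called. The difference between the members stayed at 0.10, with p = 0.5 in a paired exact test that cannot go below 0.25. Depth of signal limits miR-26b-3p on every array and miR-26b-5p on 2D replicate 2.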
